A study of Drosophila melanogaster with 6 samples.

Results

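The genes described here are 39 neuropeptide and peptide hormone precursor genes of Drosophila melanogaster, chosen by symbol from a list of known precursors. All 39 were rows of the deposited count table, which holds 17807 genes. They were measured by strand-specific, poly(A)-selected RNA sequencing of dissected pupal brains taken 24 h after puparium formation. The comparison was between wild-type flies (WT, 3 libraries) and TetAXXC flies (3 libraries), whose Tet gene carries mutations in the CXXC zinc-finger domain, the part of the protein that binds DNA. The mutation was introduced with CRISPR/Cas9 and a repair template in a stock expressing Cas9 in the germ line (nos-Cas9), and the DsRed marker of the template was later removed with piggyBac. The stock used as WT was not described further in the labels, so a difference of genetic background and the Tet edit cannot be told apart. The labels give 30 brains per genotype and call the replicates independent, but do not say how the brains were shared among the 3 libraries. If libraries shared a pool, p-values measure only the spread between libraries.

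Neuropeptides are made as longer precursors that enter the secretory pathway, where the proprotein convertase encoded by amon cuts them, the carboxypeptidase encoded by svr trims them and the enzymes encoded by Phm and the Pal genes amidate many of them. The peptides are stored in dense-core vesicles, released with the help of the Cadps protein and, for the most part, bind G-protein-coupled receptors. Many are made in only a handful of identified neurons, so their transcripts can be scarce in whole-brain RNA even where each such neuron makes much of it. In the pupa some of them time steroid release and moulting, others act on feeding, metabolism, water balance, gut and heart muscle, or on the daily rhythm of activity.

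The libraries held between 17861742 and 19521285 gene counts, of which the 39 genes together took between 0.0600% and 0.0741%. Each WT library had counts for 38 of the 39 genes, and the TetAXXC libraries for 39, 39 and 36. Levels are given as CPM (gene counts scaled to a total of 1000000 per library). Tet averaged 787 ± 88.7 CPM in WT against 867 ± 66.1 in TetAXXC (SD, n = 3 each, edgeR adjusted p 0.499), and gene-level counts do not show the edited domain. Neuron markers (elav, nSyb, brp, Syt1, Syn and para) summed to between 3013 and 3557 CPM in WT and between 3054 and 3387 CPM in TetAXXC, and 0 of the 6 passed the test. A list of 29 testis genes was low in WT, with sums of 138, 47.1 and 42.2 CPM in replicates 1 to 3, and higher in TetAXXC, with sums of 1775, 580 and 724 CPM. In that list 20 of 23 tested genes were higher in TetAXXC. Replicate 1 was the library with the highest sum in each genotype.

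The level of the precursor genes spanned more than 3 orders of magnitude. The most abundant by far was sNPF, which encodes short neuropeptide F, a family of peptides that promote feeding and growth and are made in many brain neurons, among them those of the mushroom body. Per transcript length, sNPF was at 219 ± 14.8 TPM (counts divided by the deposited exon length and scaled to a common total) in WT and 161 ± 7.86 TPM in TetAXXC (SD, n = 3 each). Its lowest library, at 153 TPM, lay above the highest library of any other member.

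The next in the order were SIFa, the precursor of SIFamide from a few neurons of the dorsal brain that act on feeding and courtship, and Akh, the precursor of adipokinetic hormone. SIFa was at 117 ± 6.18 TPM in WT and 117 ± 21.1 TPM in TetAXXC, and Akh at 106 ± 20.2 and 104 ± 20.7 TPM. The libraries of SIFa and Akh overlapped in TPM, so their order was not resolved. Nplp1, whose long precursor holds several peptides, followed at 74.4 ± 4.70 TPM in WT and 77.9 ± 6.53 TPM in TetAXXC. From there the members lay close together. Capa was at 61.6 ± 4.91 TPM in WT, Gpb5 at 54.6 ± 5.92, ITP at 48.3 ± 3.00, Ms at 46.2 ± 4.99, Dh31 at 36.5 ± 3.21 and CCHa2 at 36.5 ± 3.50, and each of these overlapped its neighbour in the order.

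In counts not divided by length, sNPF, ITP and Nplp1 made up most of the peptide RNA, between 55.4% and 58.6% of the summed CPM of the 39 genes in every library. ITP stands higher on the CPM scale than on the TPM scale because its merged exons are 4686 bp long. That gene gives an amidated hormone and longer forms from 5 annotated transcripts, which gene-level counts do not separate. At the other end, RYa had 0 counts in every WT library and 2, 1 and 0 in TetAXXC, at or under the floor of 3 counts, so no fold is given. CNMa, amn, Nplp3 and Nplp2 also failed the filter on low counts, which left 34 members for the test.

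**Figure D1:**
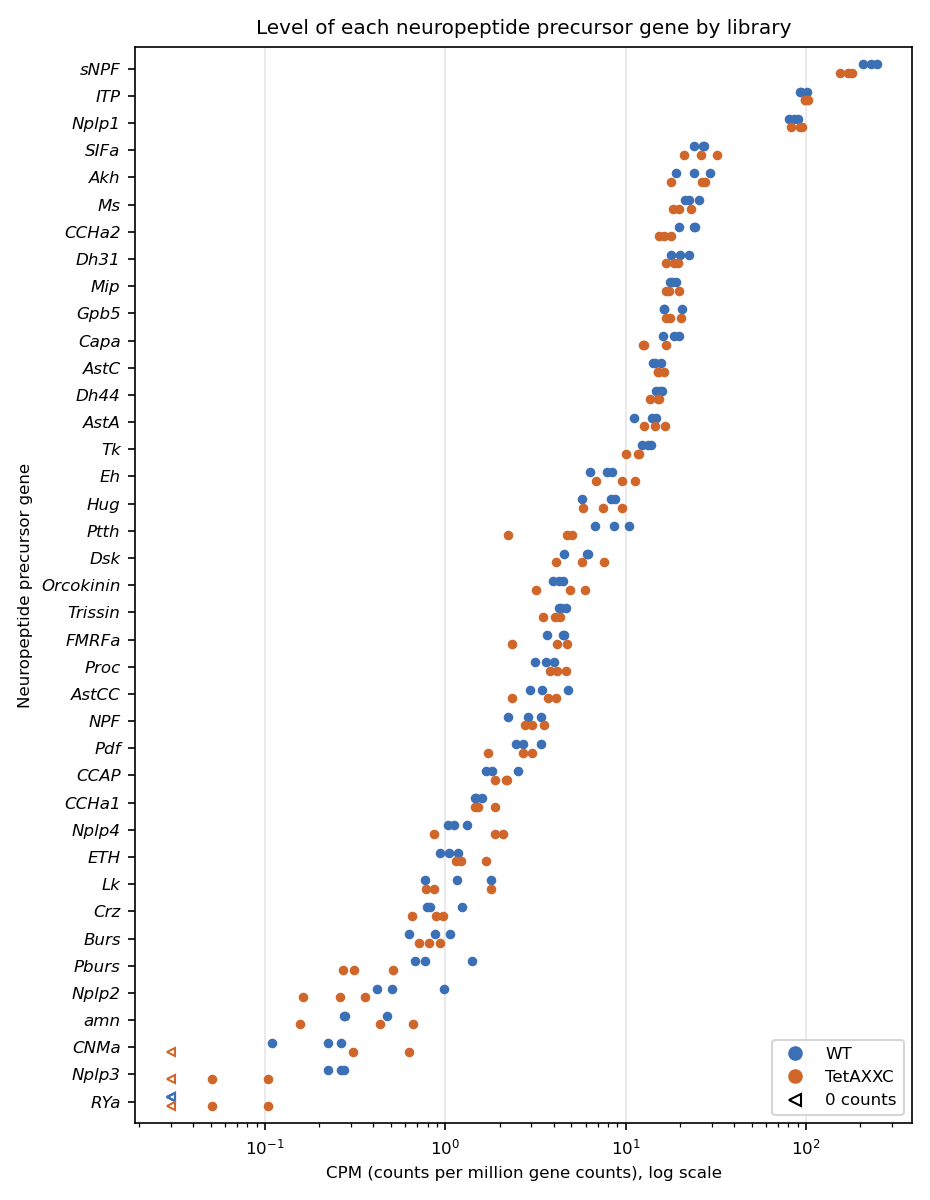
Level of each of the 39 precursor genes in each library, as CPM on a log axis, with WT in blue and TetAXXC in orange; open triangles at the left edge mark libraries with 0 counts. The TetAXXC points of sNPF, CCHa2, Tk, Ptth, Pburs, Nplp2 and Nplp3 all lie to the left of the WT points, and those of the other genes overlap.

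Of the 34 tested precursor genes, 2 were lower in TetAXXC at an edgeR adjusted p under 0.05, sNPF and CCHa2, and 0 were higher. Over all 11198 genes tested, 15.2% passed this threshold, 3.17% as lower and 12.1% as higher. The median log2 fold change of the 34 genes was -0.03, beside 0.00 for all genes tested, and 19 of the 34 had a negative value, beside 48.9% of all genes. At an unadjusted edgeR p under 0.05 there were 5 of the 34 members, all lower in TetAXXC. Of all genes tested, 26.4% were at that level in either direction and 8.31% as lower. In 5 of the 34, each time with TetAXXC lower, the libraries of the genotypes did not overlap (sNPF, CCHa2, Tk, Ptth and Pburs). Of these, Pburs passed the filter on low counts only through WT, the group where it was higher. Among all genes tested 10.7% had TetAXXC below WT without overlap and 21.4% had it above.

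Libraries with the same replicate number varied together, so a model with the replicate number as a block is given where it changes a call. In that model 4 members were lower, sNPF, CCHa2, Ptth and Capa, and 0 higher, with 21.1% of all genes called and 5.31% as lower. The same 4 were lower in the DESeq2 Wald test, which called 21.5% of all genes and 6.47% as lower. In limma-voom sNPF alone passed, with 1.16% of all genes called and 0.661% as lower. In brain RNA, fewer cells of a type and less RNA per cell cannot be told apart, which holds for every difference below.

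**Figure D2:**
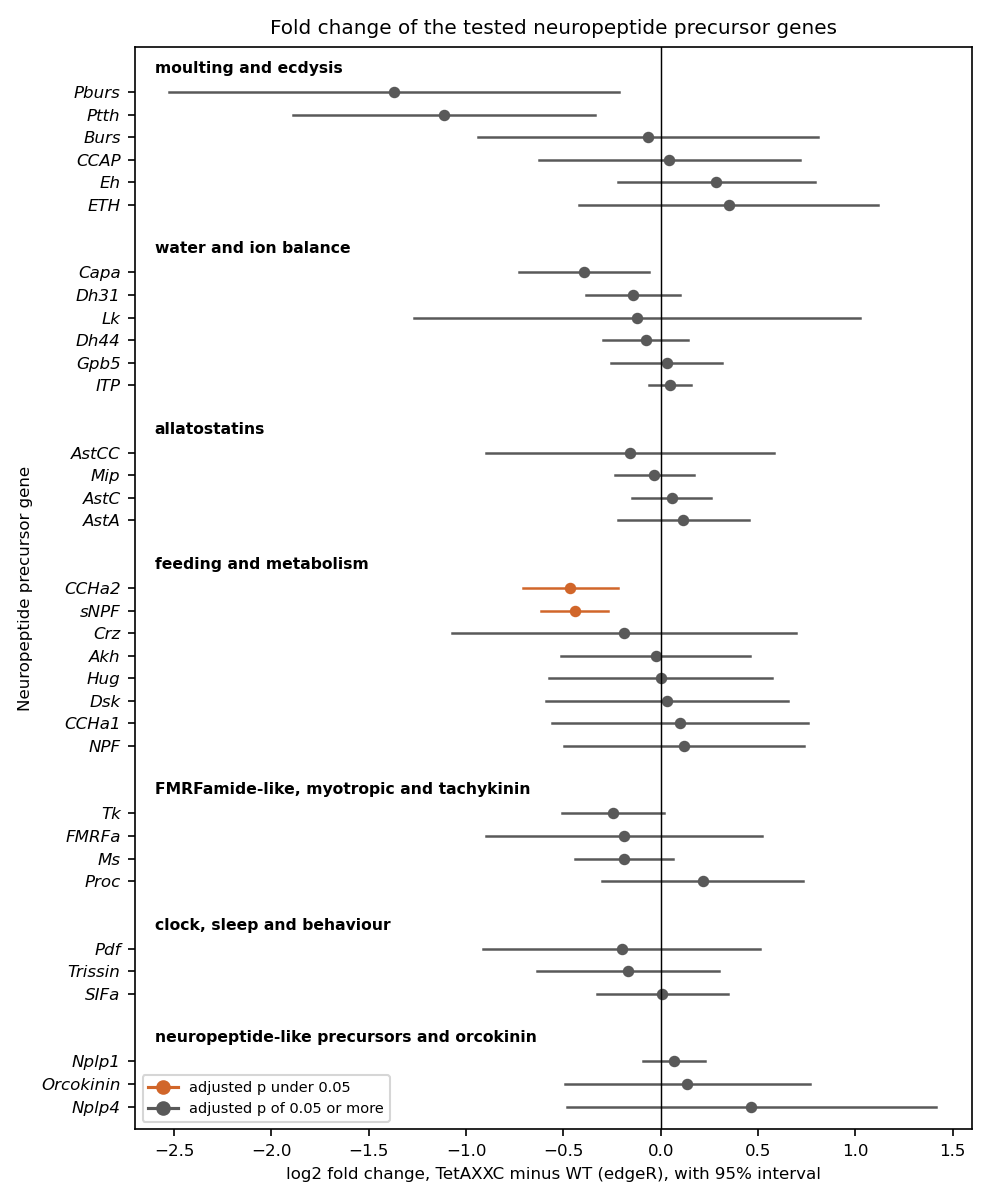
Log2 fold change (TetAXXC minus WT) of the 34 tested precursor genes from the edgeR model, with 95% intervals as lines, grouped by the role of the peptide. The intervals of sNPF and CCHa2, in orange, belong to adjusted p-values under 0.05, and those of Ptth, Pburs and Capa also lie below 0 while their adjusted p-values do not pass.

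Among the peptides of feeding and metabolism, sNPF and CCHa2 fell by a similar proportion. The sNPF gene (FBgn0032840, chromosome 2L, 20027915 to 20056373, plus strand) was counted at 229, 247 and 206 CPM in WT replicates 1 to 3 and at 170, 180 and 155 CPM in TetAXXC replicates 1 to 3. Every TetAXXC library lay below every WT library. The edgeR log2 fold change of sNPF was -0.44 (standard error 0.07, 95% interval -0.61 to -0.27) with an edgeR adjusted p of 0.0170.

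Taken by replicate number, TetAXXC had 74.3%, 73.1% and 75.1% of the sNPF level of its WT partner, a narrower spread than within either genotype. The blocked model gave an adjusted p of 4.46e-05. Leaving out replicate 1 of WT gave -0.44 and leaving out replicate 1 of TetAXXC gave -0.45, both past the threshold. Testis sums still differed between the genotypes in the other libraries, and their part in the sNPF difference was not tested. The call was lost in 1 of the 6 such fits, that without WT replicate 2, at -0.39 and an adjusted p of 0.0816. Over all 12 alternatives the adjusted p of sNPF ran from 1.17e-08 to 0.0816.

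CCHa2 encodes CCHamide-2, a peptide that responds to nutrients and acts on the insulin-producing cells, and is known from fat body and gut as well as brain. The gene (FBgn0038147, chromosome 3R, 13389059 to 13395197, minus strand) was at 23.8, 24.2 and 19.8 CPM in WT and at 17.8, 16.3 and 15.3 CPM in TetAXXC. The 3 TetAXXC libraries were again all below the 3 WT libraries. On the log2 scale the difference was -0.47 (standard error 0.10, 95% interval -0.71 to -0.22), at an edgeR adjusted p of 0.0277 and a blocked adjusted p of 0.00472.

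This call held without TetAXXC replicate 1 or 2 and was lost without any of the other libraries, with adjusted p of 0.0845, 0.109 and 0.0683 when WT replicate 1, 2 or 3 was left out and 0.0844 when TetAXXC replicate 3 was. It was also lost in limma-voom, at 0.0888, and over the 12 alternatives the adjusted p ran from 4.28e-04 to 0.109. The size of the change stayed between -0.58 and -0.42 on the log2 scale. Fat body is a known source of this peptide, and 2 of 7 fat body markers were lower in TetAXXC, Fbp1 and Fbp2. Of the 7 markers, 6 had a negative log2 fold change. The other, Lsp1alpha, was higher in TetAXXC without overlap, at 0.58 on the log2 scale, but did not pass (edgeR adjusted p 0.246). The summed fat body markers overlapped, from 1873 to 2665 CPM in WT and from 1736 to 2322 CPM in TetAXXC. Their part in the CCHa2 difference was not tested.

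The other peptides of this role did not pass. Akh, whose hormone mobilises energy stores, was at 18.9, 29.5 and 24.1 CPM in WT and at 27.4, 26.4 and 17.8 CPM in TetAXXC. These ranges overlap almost fully, and the estimate was -0.03 on the log2 scale (95% interval -0.51 to 0.46, adjusted p 0.965). Akh is made in the corpora cardiaca, a gland attached to the brain and not part of it. The steroid-cell markers of the ring gland summed to 143, 204 and 102 CPM in WT and to 132, 186 and 109 CPM in TetAXXC, and 0 of the 6 tested passed the threshold. NPF, CCHa1, Dsk, Hug and Crz, which encode neuropeptide F, CCHamide-1, drosulfakinin, the hugin pyrokinins and corazonin, had log2 fold changes from -0.19 to 0.12, with overlapping groups and adjusted p from 0.831 to 1.000.

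Among the moulting and ecdysis peptides, 0 of 6 passed the main test, but the 2 largest estimated decreases of all tested members were here. They were those of Pburs, which entered the test through its WT libraries alone, and Ptth. Ptth encodes prothoracicotropic hormone, released from brain neurons onto the prothoracic gland to start ecdysone synthesis through the receptor kinase Torso. It was at 8.63, 10.4 and 6.77 CPM in WT (164, 190 and 121 counts) and at 4.75, 5.02 and 2.23 CPM in TetAXXC (91, 98 and 41 counts). The groups did not overlap, and the lowest library was TetAXXC replicate 3.

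For Ptth the estimate was -1.11 on the log2 scale (standard error 0.33, 95% interval -1.89 to -0.34) at an adjusted p of 0.0672, just above the threshold. In the blocked model it was -1.15 with an adjusted p of 0.00285, and in the DESeq2 Wald test the adjusted p was 0.00374. By replicate number TetAXXC had 55.0%, 48.1% and 32.9% of the WT level. Over all alternatives the adjusted p ran from 0.00285 to 0.205, and each library left out kept the log2 fold change between -1.33 and -0.83. The gene (FBgn0013323, chromosome 2L, 575711 to 576896) shares 2.13% of its exon bases with cold on the other strand. That neighbour had a log2 fold change of -0.24 and missed the threshold (adjusted p 0.0890).

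Bursicon, the hormone that hardens the cuticle and expands the wings after emergence, is a dimer of the products of Burs and Pburs. The counts of Pburs (FBgn0264810, chromosome 2L, 14416729 to 14417331) were 13, 14 and 25 in WT against 6, 10 and 5 in TetAXXC. Those of Burs (FBgn0038901, chromosome 3R, 21769518 to 21770279) were 12, 16 and 19 against 18, 14 and 15. The Pburs counts did not overlap between the genotypes, whereas those of Burs did. The log2 fold changes were -1.37 (95% interval -2.53 to -0.21, adjusted p 0.122) for Pburs and -0.07 (95% interval -0.94 to 0.81, adjusted p 0.948) for Burs. Pburs reached the minimum level of the low-count filter in WT alone, so its place in the test depended on the higher group. Of the reads of both genes, Pburs took 52.0%, 46.7% and 56.8% in WT and 25.0%, 41.7% and 25.0% in TetAXXC. The exact (Clopper-Pearson) 95% intervals of these shares overlap, for example 31.3% to 72.2% in WT replicate 1 and 9.77% to 46.7% in TetAXXC replicate 1, and cover counting error only. This comparison of the partners was chosen after their values were seen.

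Eh, ETH and CCAP encode eclosion hormone, ecdysis-triggering hormone and crustacean cardioactive peptide, which act in sequence at ecdysis. Their log2 fold changes were 0.29, 0.35 and 0.05, with adjusted p of 0.484, 0.588 and 0.954. ETH is made outside the brain, in cells along the tracheae, and had only 17 to 31 counts per library. In ETH, 90.5% of the exon bases lie opposite an annotated antisense RNA, and the strand setting of the counting is not given in the sources used here.

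In the group of water and ion balance 0 of 6 passed the main test. Capa encodes peptides that act on the renal (Malpighian) tubules and a pyrokinin. It was at 16.2, 19.8 and 18.6 CPM in WT and at 12.4, 16.8 and 12.6 CPM in TetAXXC. TetAXXC replicate 2 lay above WT replicate 1, so the groups overlap, but each TetAXXC library was below its WT partner, at 76.6%, 84.8% and 67.8%. For Capa the edgeR estimate was -0.39 on the log2 scale (95% interval -0.73 to -0.06, adjusted p 0.122). Capa passed in the blocked model, with an adjusted p of 0.0238, in the DESeq2 Wald test, with 0.0314, and without TetAXXC replicate 2, with 0.0241, and the range over all alternatives reached 0.307.

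Capa neurons lie in the subesophageal zone and the ventral nerve cord. The Hox genes of the cord (Antp, Ubx, abd-A and Abd-B) summed to 26.8, 19.5 and 30.5 CPM in WT and to 20.2, 24.5 and 25.5 CPM in TetAXXC. These sums overlap, 0 of the 4 passed, and their part in the Capa difference was not tested.

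The other members of this group had narrow intervals or few reads. ITP, the ion transport peptide gene, was at 92.9, 94.3 and 101 CPM in WT and at 98.4, 102 and 99.2 in TetAXXC. Its difference was 0.05 on the log2 scale with a 95% interval from -0.06 to 0.16. Gpb5, a glycoprotein hormone subunit, was at 16.4, 20.6 and 16.2 CPM in WT and at 17.5, 20.4 and 16.8 CPM in TetAXXC. Its log2 fold change was 0.03 with an interval from -0.25 to 0.32. Dh31, a calcitonin-like diuretic hormone, was counted 380, 408 and 319 times in WT and 323, 383 and 340 times in TetAXXC. Its log2 fold change was -0.14 with an interval from -0.38 to 0.10. In all 3 genes the genotypes overlapped. Dh44, a hormone like corticotropin-releasing factor, changed by -0.08 with an interval from -0.30 to 0.14. For Lk, the leucokinin gene, 14 to 35 counts per library left an interval from -1.27 to 1.02, and 93.0% of its exon bases lie opposite an antisense RNA.

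The allatostatin precursors differed little. AstA, AstC and Mip encode the A, C and B types, peptides first known in other insects for restraining juvenile hormone synthesis. AstC was at 14.2, 15.8 and 14.6 CPM in WT and at 15.1, 16.4 and 15.2 CPM in TetAXXC, and Mip at 19.1, 17.7 and 18.0 and at 17.5, 19.7 and 16.8 CPM. The log2 fold changes of AstA, AstC and Mip were 0.12, 0.06 and -0.03, with 95% intervals that all lay between -0.24 and 0.45. AstCC, a gene like AstC that lies beside it on chromosome 2L, changed by -0.16 with a wider interval, from -0.90 to 0.58.

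In the FMRFamide-like, myotropic and tachykinin group, 0 of 4 passed. Tk, the tachykinin precursor of brain and gut, was at 13.3, 13.9 and 12.3 CPM in WT and at 11.8, 11.7 and 10.05 CPM in TetAXXC. Every TetAXXC library was below every WT library, but the step was small. The estimate was -0.24 on the log2 scale (95% interval -0.51 to 0.02, adjusted p 0.224), and 0 of 12 alternatives brought it past the threshold. The adjusted p ran from 0.159 to 0.445. Ms, the myosuppressin gene, was at 25.5, 22.4 and 21.4 CPM in WT and at 19.9, 23.0 and 18.4 in TetAXXC. The groups overlapped, with a difference of -0.19 on the log2 scale and an adjusted p of 0.341. FMRFa and Proc, the precursors of the FMRFamide-related peptides and of proctolin, changed by -0.19 and 0.22, with adjusted p of 0.778 and 0.622.

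Peptides of the clock, of sleep and of behaviour were represented by 3 tested genes, of which 0 passed. SIFa was at 24.1, 27.3 and 26.8 CPM in WT and at 26.0, 32.0 and 21.2 CPM in TetAXXC, with both the highest and the lowest value in TetAXXC. The estimated difference was 0.01 (95% interval -0.33 to 0.34). Of its exon bases 21.1% lie opposite exons of Start1, one of the ring gland markers. Pdf, the output peptide of clock neurons, had 44 to 62 counts per WT library and 32 to 58 in TetAXXC. Its log2 fold change was -0.20 with an interval from -0.91 to 0.51. Trissin changed by -0.17 with an adjusted p of 0.686, and CNMa and amn had at most 13 counts in any library.

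Of the neuropeptide-like precursors and orcokinin, 3 were tested and 0 passed. Nplp1 was at 80.3, 85.5 and 90.0 CPM in WT and at 82.3, 94.97 and 92.8 in TetAXXC, which overlap. Its difference was 0.07 on the log2 scale with a 95% interval from -0.09 to 0.23. Orcokinin and Nplp4 changed by 0.14 and 0.47, with adjusted p of 0.823 and 0.552. Nplp2 and Nplp3 were too rare for the test. The counts of Nplp3 were 5, 5 and 4 in WT against 2, 1 and 0 in TetAXXC, and those of Nplp2 were 8, 18 and 9 against 5, 7 and 3. The groups did not overlap in either gene. The ratio of summed counts, TetAXXC over WT, was 0.207 for Nplp3 (exact 95% counting interval 0.0381 to 0.741) and 0.413 for Nplp2 (0.210 to 0.777). With no filter on low counts the adjusted p was 0.220 for Nplp3 and 0.265 for Nplp2.

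**Figure D3:**
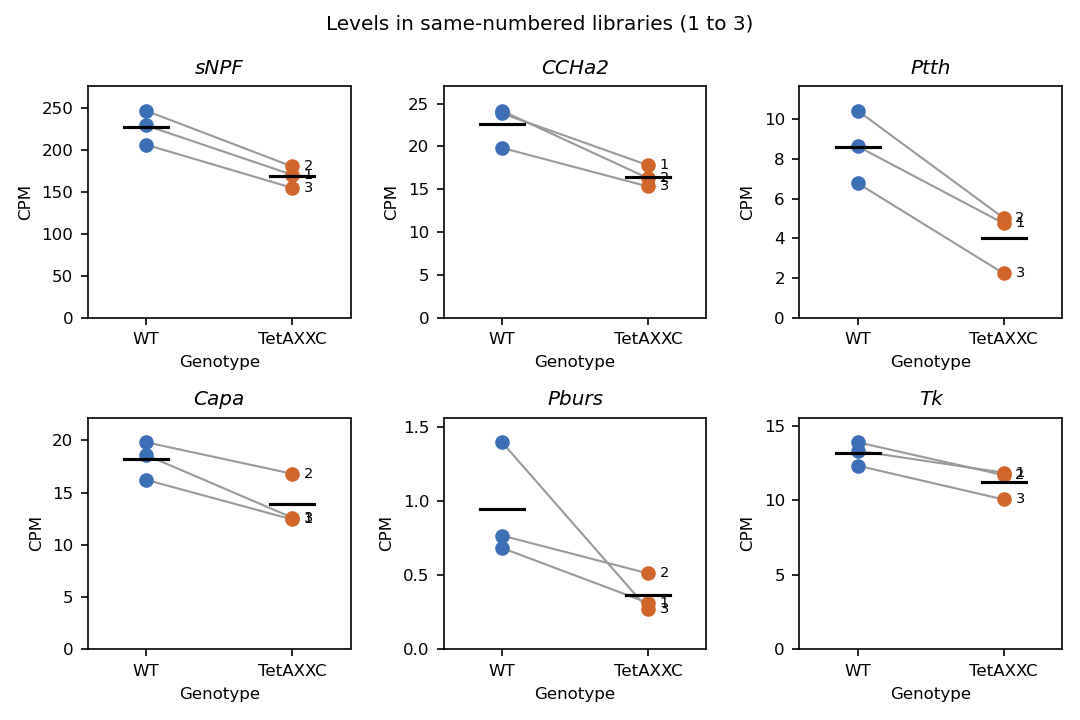
CPM of 6 precursor genes by genotype on axes that start at 0; points are libraries, grey lines join libraries with the same replicate number (printed at the right) and black bars are means (n = 3 each). The 6 genes are among the 7 tested members that were lower in all 3 pairs, so every line falls from WT to TetAXXC. The 5 members higher in all 3 pairs are not shown. The groups overlap in Capa alone.

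Seen across the pairs, 7 of the 34 tested members were lower in TetAXXC in all 3 same-numbered pairs, namely sNPF, CCHa2, Ptth, Capa, Pburs, Tk and Trissin. Among all genes tested 20.8% were, so this share of the members is near the background. In the other direction 5 members were higher in all 3 pairs, namely AstA, AstC, CCHa1, ETH and Nplp1, beside 30.0% of all genes tested. The summed CPM of the 39 genes was 89.9%, 92.1% and 88.5% of the WT partner in pairs 1 to 3. Without sNPF the sums were 459, 494 and 472 CPM in WT and 448, 502 and 445 CPM in TetAXXC, which overlap.

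Depth and the spread between libraries both bear on how small a change could be seen. For 10 members (Nplp1, SIFa, Gpb5, ITP, Ms, Dh31, Mip, AstC, AstA and Dh44) the 95% interval of the log2 fold change lay between -0.5 and 0.5, that is between 70.7% and 141% of the WT level. For 6 members (Ptth, Pburs, Nplp4, Lk, ETH and Crz) it reached beyond a change of 1 log2 unit. Spread beyond counting error was common. The within-group coefficient of variation of sNPF was 8.31%, beside 1.64% from counting alone, that of Akh 22.0% beside 4.72%, and that of Ptth 31.1% beside 9.22%. It was more than 2 times the counting error in 15 of the 34 tested members, and the median ratio was 1.80.

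**Figure D4:**
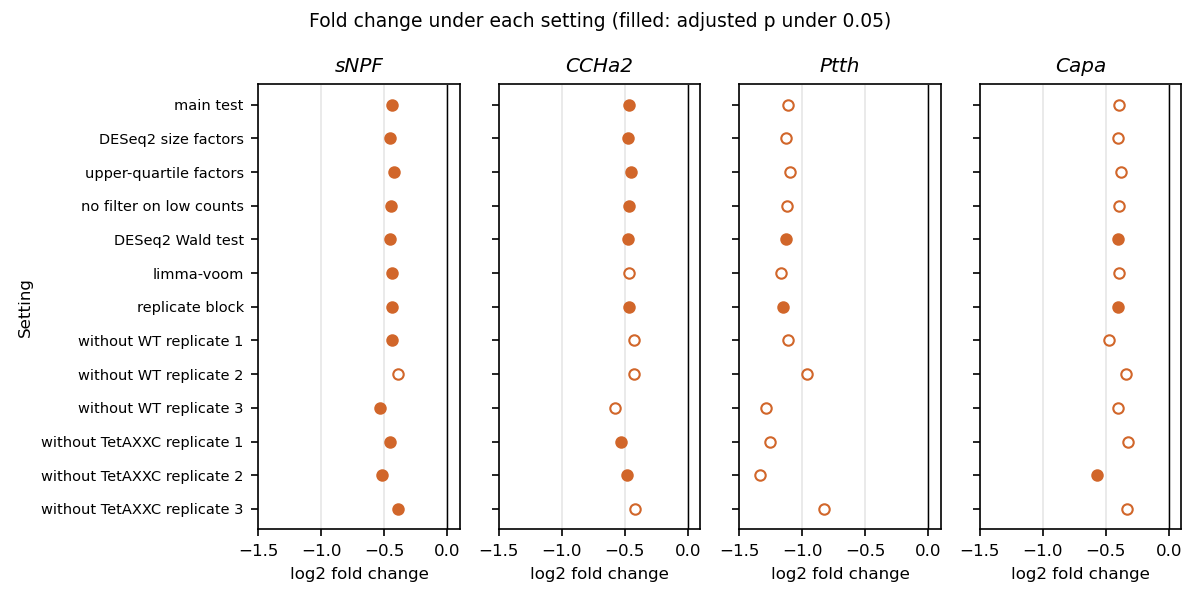
Log2 fold change (TetAXXC minus WT) of 4 precursor genes under the main edgeR test and 12 alternatives, with filled points for adjusted p under 0.05. All points lie below 0; sNPF is filled in all settings but that without WT replicate 2, CCHa2 in 8 of the 13, Capa in 3 and Ptth in 2.

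The 4 nearest tested genes of each member without overlap between the genotypes were examined. The nearest tested neighbours of sNPF are barr, lok, vls and bwa, all within 10018 bp, and none of these 4 passed the threshold, with log2 fold changes from -0.20 to 0.12. At CCHa2 the nearest gene, CG9799, lies 350 bp away and changed by -0.03 with an adjusted p of 0.920. A further neighbour, GILT1, 3329 bp away, fell by 0.24 on the log2 scale with an adjusted p of 0.0424. Near Ptth none of cold, Pph13, Ipk2 and Sf3b1 passed. The span of Tk overlaps that of Ect3 without shared exon bases, and Ect3 rose by 0.74 on the log2 scale with an adjusted p of 0.0167. Near Pburs the closest tested gene, elB, lies 7180 bp away and changed by 0.00, and CG15283, 32951 bp away, rose by 4.84 with an adjusted p of 0.0176. Of the neighbours of Nplp2, CG17687 (1436 bp away) and CG14113 (26677 bp) rose by 3.20 and 4.31. Of those of Nplp3, CG33060 (12350 bp) rose by 3.29 and CG13056 (14623 bp) fell by 0.49. The adjusted p of these neighbours of Nplp2 and Nplp3 ran from 0.0188 to 0.0316. Over all genes tested 15.2% were called, and a link between called neighbours and the peptide genes was not tested.

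A list of 35 genes that make, release or break down peptides also held the precursor or hormone genes Gpa2, natalisin and spab. Of the 35 genes, 32 were tested. Of these 1 passed, spab, listed there as a further peptide precursor, beside the 15.2% of all genes called. It fell from 38.1 ± 2.51 CPM in WT to 28.9 ± 3.63 CPM in TetAXXC (SD, n = 3 each), with non-overlapping libraries of 37.2, 40.9 and 36.1 against 27.6, 32.9 and 26.0 CPM. The difference was -0.41 on the log2 scale at an adjusted p of 0.030, which over 12 alternatives ran from 1.58e-04 to 0.114. Among the 6 fits with a library left out only that without TetAXXC replicate 2 kept this call, and limma-voom gave 0.0904. In the blocked model 4 genes of the list passed, spab, Vmat and Cadps as lower and Pal2 as higher, beside 21.1% of all genes called.

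Of the processing enzymes, 0 passed the main test. The convertase gene amon averaged 119 ± 4.20 CPM in WT against 122 ± 2.19 in TetAXXC (SD, n = 3 each), and Phm 94.8 ± 3.49 against 98.5 ± 5.55 CPM. Their log2 fold changes were 0.03 and 0.05, with adjusted p of 0.708 and 0.668. Pal2, one of the amidating enzyme genes, was at 67.4, 66.9 and 69.9 CPM in WT and at 72.2, 85.5 and 82.2 CPM in TetAXXC, without overlap. Its log2 fold change was 0.22 (95% interval 0.07 to 0.38, edgeR adjusted p 0.0653), and it passed with the block, in the DESeq2 Wald test and without TetAXXC replicate 1. The gene of the convertase chaperone, 7B2, changed by 0.01 and svr by -0.06. Syt4, Rab2 and Cadps, the 3 highest of the list in TPM, changed by 0.05, 0.06 and -0.14. The gene dimm, a transcription factor of peptidergic cells, averaged 7.46 ± 0.921 CPM in WT against 6.80 ± 0.176 in TetAXXC (adjusted p 0.660). The median of the 32 genes was -0.02 on the log2 scale.

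Receptors for these peptides were covered by 38 genes, of which 37 were tested, with a median log2 fold change of -0.03. Of the 37, 2 passed, 1 as lower and 1 as higher. Of all genes tested 15.2% were called, 3.17% as lower and 12.1% as higher. ETHR, the receptor of ecdysis-triggering hormone, fell from a mean of 11.1 ± 0.744 CPM in WT to 7.99 ± 0.342 in TetAXXC (SD, n = 3 each). On the log2 scale this was -0.48, at an adjusted p of 0.0399. Leaving out any library lost this call, at adjusted p from 0.0504 to 0.142, and the range over all alternatives began at 0.00704. PK1-R, a receptor for the pyrokinin of the Capa precursor, was counted 4, 2 and 3 times in WT and rose to 17, 13 and 15 times in TetAXXC. PK1-R passed the filter on low counts only through TetAXXC, the group where it was higher. With no filter it still passed the threshold. The ratio of its summed counts was 4.82 (exact 95% counting interval 2.33 to 11.2), with an adjusted p of 0.0255, which ran from 0.00998 to 0.115 over the alternatives. Only the fit without TetAXXC replicate 2 kept its call among those that left out a library. In the blocked model 3 receptors passed, ETHR, PK1-R and, as higher, TkR99D, a tachykinin receptor, beside 21.1% of all genes called.

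The receptors of sNPF, CCHa2 and Ptth did not pass in the main test. The sNPF receptor gene, sNPF-R, averaged 48.8 ± 3.53 CPM in WT against 53.0 ± 1.63 in TetAXXC (SD, n = 3 each), a difference of 0.11 on the log2 scale with an adjusted p of 0.299. CCHa2-R averaged 13.6 ± 1.04 against 14.8 ± 1.26 CPM (adjusted p 0.60). The Ptth receptor gene, tor, averaged 0.543 ± 0.414 against 0.824 ± 0.163 CPM (adjusted p 0.628).

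Some markers of other cells also passed the test, beside the 15.2% of all genes called. Of 5 tested glia markers 4 were lower in TetAXXC (Gat, alrm, wrapper and moody), with sums from 568 to 602 CPM in WT and from 451 to 486 CPM in TetAXXC. The other glia marker, repo, averaged 150.6 ± 8.99 CPM in WT against 151.5 ± 9.56 in TetAXXC (SD, n = 3 each, edgeR adjusted p 0.993). Of 8 tested eye markers 3 were lower (ninaC, inaC and chp), with sums from 1003 to 1101 and from 860 to 901 CPM. Of 7 tested hemocyte markers 2 were higher (Col4a1 and vkg), 2 others had negative values that did not pass (Hml at -0.43 and Pxn at -0.08 on the log2 scale), and the sums overlapped, from 594 to 636 and from 622 to 651 CPM. Their part in the differences above was not tested. Muscle markers (0 of 10 called) and cuticle markers (0 of 7) overlapped in their sums. Gut digestive enzyme genes summed to at most 0.616 CPM in any library, with alphaTry, deltaTry, Jon25Bi and LManV at 0 counts in all. The peptidergic list (dimm, Phm, amon, Cadps and IA-2) summed to between 1549 and 1682 CPM in WT and between 1514 and 1624 CPM in TetAXXC, with 0 of 5 called.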

How the data were processed

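The authors deposited a table of raw read counts for 17807 genes with a column for each of the 6 libraries and a merged exon length in bp, per the file headers, and columns were matched to libraries by name. Trimmomatic 0.39, HISAT2, SAMtools, featureCounts and DESeq2, and the build BDGP6/dm6, are named per the submitters' processing notes, whereas other versions and the strand setting are not given in the sources used here. Coordinates are those of the deposited table, and all 39 members have the same ones in Ensembl release 115, where Nplp2 carries a newer ID.

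CPM were computed from each library's summed gene counts and TPM from counts and exon length. Depth was 17861742 to 19521285 counts per library. The effect of genotype was fitted to these counts in R 4.3.3 with edgeR 4.0.16 (filterByExpr with minimum count 10 and minimum total 15, TMM, estimateDisp, glmQLFit and glmQLFTest), two-sided, with Benjamini-Hochberg adjustment over all 11198 genes tested and a threshold of 0.05. Standard errors came from the coefficient and its F statistic, and 95% intervals from these and the test's degrees of freedom. Alternatives were DESeq2 1.42.0 size factors, upper-quartile factors, no filter, the DESeq2 Wald test, limma-voom (limma 3.58.1), the replicate block, and each library left out. The edgeR test, the block, limma-voom and DESeq2 were each tested on simulated counts. These counts had less spread than the data, no shared replicate effect and larger changes than that of sNPF. They therefore do not show how well a change of that size is found.

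Deviations from the group mean correlated at 0.652, 0.419 and 0.343 between libraries with the same number, so the numbers were taken to pair the libraries; the labels do not say what they share. No 2 replicates agreed within sampling noise (chi-square per degree of freedom 6.94 to 17.8). Members with a call, without overlap or among the 10 highest in TPM are given by library, as are AstC and Mip. From the other pathway lists, called genes and up to 6 of the highest TPM are named, besides amon, Phm, svr, dimm and the receptors of members that fell, which were picked by role after their values were seen. The members, the peptide-processing and receptor lists, the marker lists and the tests were chosen with earlier results of these data known. The symbols Gliotactin and rye of the marker lists were not matched.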

Additional observations from a re-analysis of the deposited data

How the results depend on the processing

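The number of precursor genes past the threshold was 2 in the main test and with DESeq2 size factors, upper-quartile factors or no filter. It was 4 in the DESeq2 Wald test and with the replicate block, 1 in limma-voom (sNPF) and from 0 to 3 with a library left out. The 0 was without WT replicate 2, where 0.462% of all genes tested were called. Over all genes the count was 130 in limma-voom, 1.16% of those tested, and from 54 to 2095 with a library left out (0.462% to 18.0%), beside 1707. Genes of the peptide-processing list past the threshold numbered 7 of 32 in the DESeq2 Wald test (6 of them lower), beside 21.5% of all genes (6.47% lower). The number was 4 with the block, beside 21.1% of all genes, 0 in limma-voom and from 0 to 1 with a library left out. Receptors numbered 1 with no filter, beside 11.6% of all genes called, and 3 with the block, beside 21.1%. They numbered 0 in limma-voom and from 0 to 1 with a library left out. The replicate block changed no other call of a precursor gene. Of 204 fold changes of the 34 members with all libraries, 194 kept direction and side of the threshold, 1 lost it, 4 gained it and 5 changed direction. Of 204 with a library left out, 166 kept both, 5 lost the threshold, 1 gained it and 32 changed direction. SIFa was at -0.0026 with DESeq2 size factors, -0.0023 in the DESeq2 Wald test, -0.0019 in limma-voom and -0.0033 with the block, and Hug at 0.016 with upper-quartile factors. With a library left out the following had no stable direction on the log2 scale.
The fold change ran for Akh from -0.18 to 0.15, AstA from -0.019 to 0.21, AstC from -0.0042 to 0.093, AstCC from -0.34 to 0.045, Burs from -0.25 to 0.10, CCAP from -0.091 to 0.24, CCHa1 from -0.048 to 0.17 and Crz from -0.33 to 0.022.
It ran for Dsk from -0.23 to 0.23, FMRFa from -0.41 to 0.056, Gpb5 from -0.079 to 0.14, Hug from -0.20 to 0.13, Lk from -0.62 to 0.22, Mip from -0.12 to 0.012, NPF from -0.050 to 0.26, Orcokinin from -0.090 to 0.35 and SIFa from -0.18 to 0.14.
None of these genes had a called difference. All 78 mean CPM values moved by less than 1 SD when library sizes were adjusted by TMM. No alternative in the list was left out. The depth limits members under about 100 counts in all, 7 of the 39.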
